A study of Arabidopsis thaliana with 3 samples.

Results

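The genes described here are the 125 whose signal on the ppi1 array was at least 1.5-fold above the signal on both other arrays of the study. They were drawn from 3602 Arabidopsis thaliana genes with a probe set of their own, of which 1796 lay above a floor of 14.9 signal units on all 3 arrays. They were selected on the measured ratios of ppi1 to line 75-IV and of ppi1 to wild type, so both ratios are given as a description and have no test. In all 138 genes passed the rule, and 13 of them were left out because they are named in the rule or belong to families it leaves out. Those families are class III peroxidases, expansins, ribosomal proteins, cytochromes P450, UDP-glycosyltransferases, glutathione transferases and WRKY factors.

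RNA came from whole seedlings in the Col-0 background at growth stage 1.02, raised on MS medium with 0.5% sucrose in days of 16 h light. In ppi1 the Toc33 gene is disrupted by T-DNA. In line 75-IV the labels place the T-DNA in Toc75 and give the locus At4g09070, whereas the gene table gives TOC75-IV as the next locus, AT4G09080, and the title of the study calls its second mutant ppi3. Wild type is unmodified Col-0. Each group had 1 Affymetrix array, so no difference could be set against a replicate error and every fold is a comparison of single arrays. The number of plants per sample was not given in the sources used here. A check of the mutated genes was not possible, since neither TOC33 nor a TOC75 gene had a probe set named for it alone.

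Toc33 and the Toc75 proteins belong to the translocon of the outer chloroplast envelope, through which precursor proteins made in the cytosol enter plastids. Toc33 is a GTP-binding receptor that meets the precursors of many photosynthetic proteins, and ppi1 seedlings are known to be pale and to green slowly. A related receptor, Toc34, is still made in ppi1. Transcripts of whole seedlings sum over many cell types, so a change in the share of a cell type and a change of transcript per cell cannot be told apart. Markers of green tissue were above the floor on all arrays. The 4 light-harvesting and photosystem I genes with a probe set summed to 9703.7 signal units in ppi1, 12501.0 in line 75-IV and 13108.2 in wild type, and none of them is a member. Of 5 root or jacalin lectin markers, 4 lay above the floor on all arrays and JAL23 lay below it on each. The 5 summed to 562.0 in ppi1, 648.3 in line 75-IV and 481.1 in wild type, but they did not move together. JAL34 had 345.9 in ppi1, 271.6 in line 75-IV and 252.7 in wild type, and JAL31 had 95.0 in ppi1, 68.5 in line 75-IV and 59.5 in wild type. AT4G30170 was lowest in ppi1, with 71.9 in ppi1, 236.7 in line 75-IV and 139.9 in wild type, and AT1G52070 had 47.2 in ppi1, 71.3 in line 75-IV and 28.9 in wild type. Their part in the values below was not tested.

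The arrays also differed as a whole. Genes highest on the ppi1 array made up 45.8% of the 1796, against 30.2% for line 75-IV and 24.0% for wild type. The array background given in the labels was 61.98 for ppi1, 56.59 for line 75-IV and 50.47 for wild type, and the labels count 504 outlier cells on the ppi1 array, 20 on that of line 75-IV and 11 on that of wild type. The glyceraldehyde-3-phosphate dehydrogenase control, read at both ends of the transcript, had a 3′ to 5′ ratio of 1.61 in ppi1, 2.42 in line 75-IV and 18.7 in wild type. The ubiquitin control differed less, with ratios of 2.75 in ppi1, 3.51 in line 75-IV and 4.16 in wild type. The part of background and transcript integrity in the members' ratios was not tested.

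The share of all measured genes that passed the same rule of size was 7.68%, and nothing is read from it because the rule used this contrast. Taken alone, ppi1 was at least 1.5-fold above line 75-IV in 14.0% of the genes and above wild type in 16.7%. Of probe sets with no gene or several genes, which were not eligible, 7.92% passed (202 of 2552). Line 75-IV was at least 1.5-fold above both other arrays in 45 genes (2.51%) and wild type in 20 genes (1.11%). In the opposite direction ppi1 was at least 1.5-fold below both others in 98 genes (5.46%), line 75-IV in 32 (1.78%) and wild type in 64 (3.56%). These counts are for the deposited scaling, and the upward count of ppi1 changed with the scaling between arrays.

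**Figure D1:**
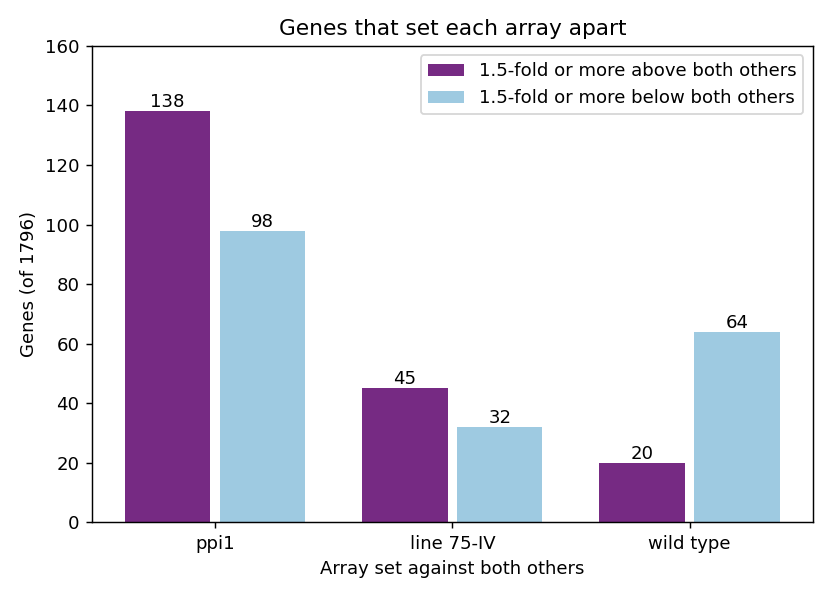
Number of genes, of 1796 above the floor on all arrays, whose signal on the named array was at least 1.5-fold above (left bar) or below (right bar) that on both others. The ppi1 bars stand at 138 and 98, those of line 75-IV at 45 and 32, and those of wild type at 20 and 64.

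The members spanned a wide range of levels. Their signals in ppi1 ran from 26.0 to 2832.2 with a median of 83.1, against a median of 44.4 in line 75-IV and 39.8 in wild type. The median ratio was 1.75-fold for ppi1 over line 75-IV and 1.79-fold for ppi1 over wild type. Most members lay close to the threshold. The lower of the 2 ratios had a median of 1.66-fold, and it reached 2-fold in 13 members and 3-fold in 3. Beside these 13, 0.947% of all measured genes were at least 2-fold above both other arrays in ppi1, the genes left out by name or family included.

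The members nearest the threshold show how finely it divides the genes. AT5G26110, with 33.3 in ppi1, 22.2 in line 75-IV and 19.8 in wild type, sat exactly at 1.5-fold. AT2G46520 had 43.0 in ppi1, 28.6 in line 75-IV and 23.1 in wild type, and AT4G34150 had 42.3 in ppi1, 22.9 in line 75-IV and 28.1 in wild type. Just outside stood AT2G42520, with 71.6 in ppi1, 47.8 in line 75-IV and 31.8 in wild type. AT2G46490 had 218.7 in ppi1, 123.5 in line 75-IV and 146.1 in wild type, and AT4G07950 had 94.9 in ppi1, 63.5 in line 75-IV and 55.8 in wild type. The genes on both sides had nearly the same ratios, and the threshold falls between them.

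**Figure D2:**
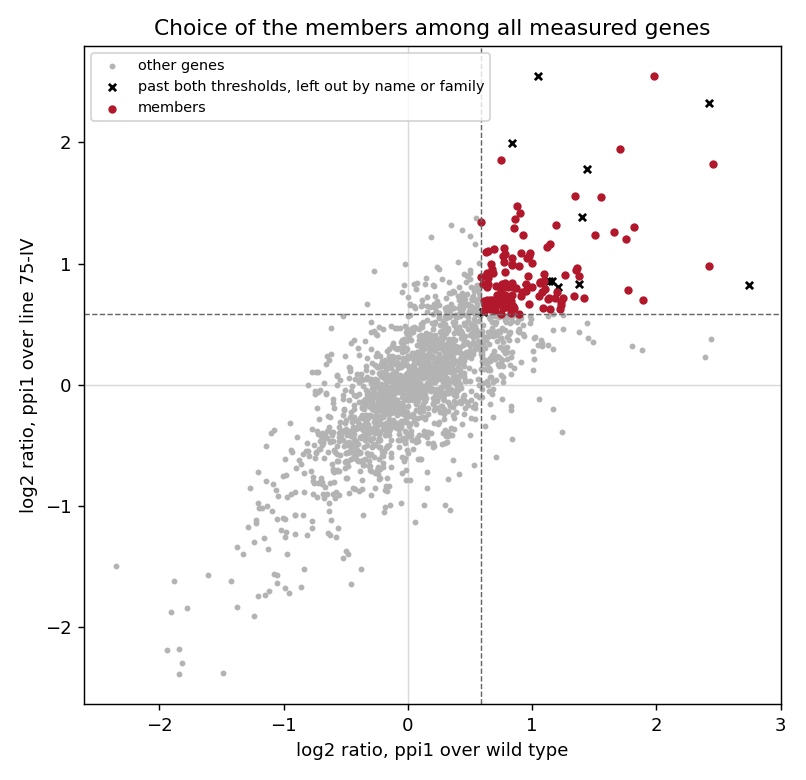
Each point is 1 of 1796 genes, with its log2 ratio of ppi1 to wild type on the horizontal axis and of ppi1 to line 75-IV on the vertical axis. Dashed lines mark 1.5-fold, red points are the 125 members and crosses the 13 genes past both lines that were left out; the axes share the ppi1 array, so a slope of the cloud is built in.

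Depth of signal limits part of the set. In 49 members (39.2%) the line 75-IV or the wild-type signal was under 29.8, which is 2 times the floor, against 23.9% of all measured genes. With the genes cut by mean signal into 4 classes of 449, 9.35% of the dimmest class passed the rule, followed by 8.46%, 7.80% and 5.12% of the brighter classes. Among the 863 genes at 59.6 or more on all 3 arrays, which is 4 times the floor, 6.03% passed, and 46 of the 125 members were of this kind. The line 75-IV and wild-type signals of members are held below that of ppi1 by the rule. The shares under 29.8 and at 59.6 or more thus say nothing of how dim the members are as genes. The 4 classes were cut by the mean over all 3 arrays, and the share that passed fell from the dimmest to the brightest. Over all 1796 genes the median signal was 69.9 in ppi1, 68.95 in line 75-IV and 66.3 in wild type.

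Between the other arrays, which no part of the rule compared directly, the members did not lean one way. Line 75-IV was above wild type in 69 members, below it in 53 and equal to it in 3. The share above, 55.2%, lay beside 55.1% of all 1796 genes, and the median log2 ratio of line 75-IV to wild type was 0.03 in the members and 0.05 in all genes. Both signals were within 1.2-fold of each other in 61.6% of the members, against 57.1% of all genes. Line 75-IV was at least 1.5-fold above wild type in 7 of the 125 members, against 140 of all 1796 genes (7.80%). It was at least 1.5-fold below wild type in 3 of the 125, against 72 of the 1796 (4.01%). The shares above and within 1.2-fold lay near those of all genes, and both 1.5-fold shares were lower in the members. The rule holds both signals above the floor and under that of ppi1, which limits how far apart they can be. The lower 1.5-fold shares are thus in part built in, and nothing is read from them.

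NIG, listed as a GTPase that interacts with a nuclear shuttle protein, was the member furthest apart between those arrays, with 111.3 in ppi1, 56.3 in line 75-IV and 20.8 in wild type. AT4G39680, of the SAP domain nucleic acid binding type, had 119.8 in ppi1, 73.8 in line 75-IV and 32.3 in wild type. AT4G37920 had 56.1 in ppi1, 32.7 in line 75-IV and 16.4 in wild type. In these genes the 3 arrays formed steps, with line 75-IV in the middle, and the ratio of line 75-IV to wild type was 2.71-fold, 2.28-fold and 1.99-fold. The other 4 members at least 1.5-fold higher in line 75-IV than in wild type were AT1G03230 (1.63-fold), AT4G38550 (1.55-fold), RH39 (1.52-fold) and SAG29 (1.51-fold).

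By function, 104 members were placed in 9 groups and 21 had no role that could be stated with certainty. For 19 members the RefSeq gene table held a descriptive name. The family given for other loci is general background on those loci and is not written in the deposited files. Line 75-IV was above wild type in 4 of 13 members for the cell wall and defence, 4 of 6 proteases, 8 of 15 for resistance and signalling and 7 of 10 for membrane traffic. It was above wild type in 14 of 19 members for RNA and translation, 3 of 5 transcription factors, 1 of 10 for folding and ubiquitin and 13 of 22 for metabolism and transport. Of the 4 with other known features it was above in 3, and of the 21 without a role in 12. The share over all measured genes was 55.1%, and with so few genes in a group no group is singled out by these counts.

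Proteins of the secretory pathway that act in the cell wall or in defence formed a group of 13 members, with ppi1 signals from 26.8 to 2832.2 and a median lower ratio of 1.79-fold. The leading member of the whole set was AT2G43620, of the chitinase family, whose enzymes cut a polymer of fungal walls. Its signal was 452.3 in ppi1, 77.5 in line 75-IV and 114.4 in wild type, which is 5.84-fold and 3.95-fold higher in ppi1. AT1G52100, a jacalin-type lectin that belongs to a family of sugar-binding proteins, had 785.7 in ppi1, 341.5 in line 75-IV and 232.6 in wild type. Both genes were well above the floor on every array. In line 75-IV AT2G43620 was near the median of 68.95 over all measured genes on that array. SKU5, a copper oxidase-like protein of the cell surface named for its effect on the direction of root growth, had 361.6 in ppi1, 169.9 in line 75-IV and 192.5 in wild type. AT4G07820, of the family of pathogenesis-related protein 1, had 189.2 in ppi1, 70.8 in line 75-IV and 101.0 in wild type, 2.67-fold and 1.87-fold higher in ppi1. The 3 further probe sets for AT4G07820 lay below 5 signal units on all arrays, so its value rests on 1 probe set. Its relative PR-1-LIKE stood at 26.8 in ppi1 and at 15.0 in both line 75-IV and wild type, just above the floor.

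The brightest members were also in this group. AT1G62510, of the lipid transfer protein family, had 2832.2 in ppi1, 1500.1 in line 75-IV and 1817.5 in wild type, 1.89-fold and 1.56-fold higher. THI2.2, a thionin, which is a small antimicrobial peptide, had 1698.6 in ppi1, 964.5 in line 75-IV and 1038.4 in wild type. AT1G54010, listed as GDSL-like lipase 23, had 1341.7 in ppi1, 768.4 in line 75-IV and 788.2 in wild type. For these bright genes line 75-IV was the lowest array and ppi1 the highest, with ppi1 at most 1.70-fold above wild type. AT1G62500, the gene next to AT1G62510 in locus order and of the same family, had 157.3 in ppi1, 87.3 in line 75-IV and 75.3 in wild type. AT2G05790, of the family of beta-1,3-glucanases, had 211.1 in ppi1, 112.7 in line 75-IV and 87.9 in wild type. The leucine-rich repeat extensins AT1G49490 and AT4G33970 were dim, with 36.6 and 28.7 in ppi1, and the hydroxyproline-rich glycoprotein gene AT4G25620 had 118.7.

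Proteases numbered 6, of which 4 were of the aspartyl protease family, enzymes and enzyme-like proteins many of which are secreted. AT3G52500 had the third largest lower ratio of all members, with 420.9 in ppi1, 109.5 in line 75-IV and 129.2 in wild type, 3.84-fold and 3.26-fold higher in ppi1. AT1G03220 had 626.5 in ppi1, 336.7 in line 75-IV and 241.9 in wild type. Its neighbour in locus order, AT1G03230, had 131.8 in ppi1, 80.3 in line 75-IV and 49.3 in wild type. In this adjacent pair line 75-IV lay between the other arrays, whereas in AT3G52500 it was the lowest. AT1G09750 had 546.7 in ppi1, 353.0 in line 75-IV and 257.0 in wild type. The serine carboxypeptidase-like gene scpl26 had 204.5 in ppi1, 132.9 in line 75-IV and 127.0 in wild type in its brightest probe set. A second probe set of scpl26 did not have this order, with 59.0 in ppi1, 44.0 in line 75-IV and 76.3 in wild type. AT2G03140, of the CAAX protease type, had 48.1 in ppi1, 27.0 in line 75-IV and 30.7 in wild type, and its lower ratio was below 1.5-fold after median centring, quantile normalization or loess.

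The group for disease resistance and signalling, assigned by hand, held 15 members. AT4G38550 and pEARLI4 belong to the same family, named after a transcript induced early by aluminium. Only this family was given for them, with no role in resistance or signalling. AT4G38550 had 106.2 in ppi1, 30.1 in line 75-IV and 19.4 in wild type, 3.53-fold and 5.47-fold higher, with its wild-type signal near the floor. pEARLI4 had 326.2 in ppi1, 131.0 in line 75-IV and 143.0 in wild type. Both relatives were thus more than 2-fold above the other arrays in ppi1, though they differed in which of the other arrays was lower. AT1G04300, a TRAF-like gene, had 127.0 in ppi1, 54.0 in line 75-IV and 44.7 in wild type.

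Genes with the TIR domain, which occurs in intracellular immune receptors, were 3 in number. AT4G19530 had 207.0 in ppi1, 74.3 in line 75-IV and 112.6 in wild type. AT3G44400 had 112.3 in ppi1, 70.1 in line 75-IV and 47.9 in wild type, and AT1G61100 had 85.9 in ppi1, 33.9 in line 75-IV and 57.0 in wild type. Line 75-IV was the lowest array for AT4G19530 and AT1G61100, and wild type was the lowest for AT3G44400. A pair of genes related to NDR1, a membrane protein of resistance signalling, had 66.9 (AT4G01410) and 67.4 (AT2G27080) in ppi1, against 39.3 and 41.8 in line 75-IV and 31.7 and 40.9 in wild type. Kinases were AT2G23450, related to wall-associated kinases, with 112.8 in ppi1, PTI1-4, listed as Pto-interacting 1-4, with 101.9, and AT2G39360 with 45.9. Their ratios were between 1.58-fold and 1.77-fold. The C1 domain genes AT4G02540 and AT2G44370 had 209.3 and 73.3 in ppi1. AT1G09160, a type 2C protein phosphatase, and AT4G34150, with a C2 domain, were dim, with 31.7 and 42.3.

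**Figure D3:**
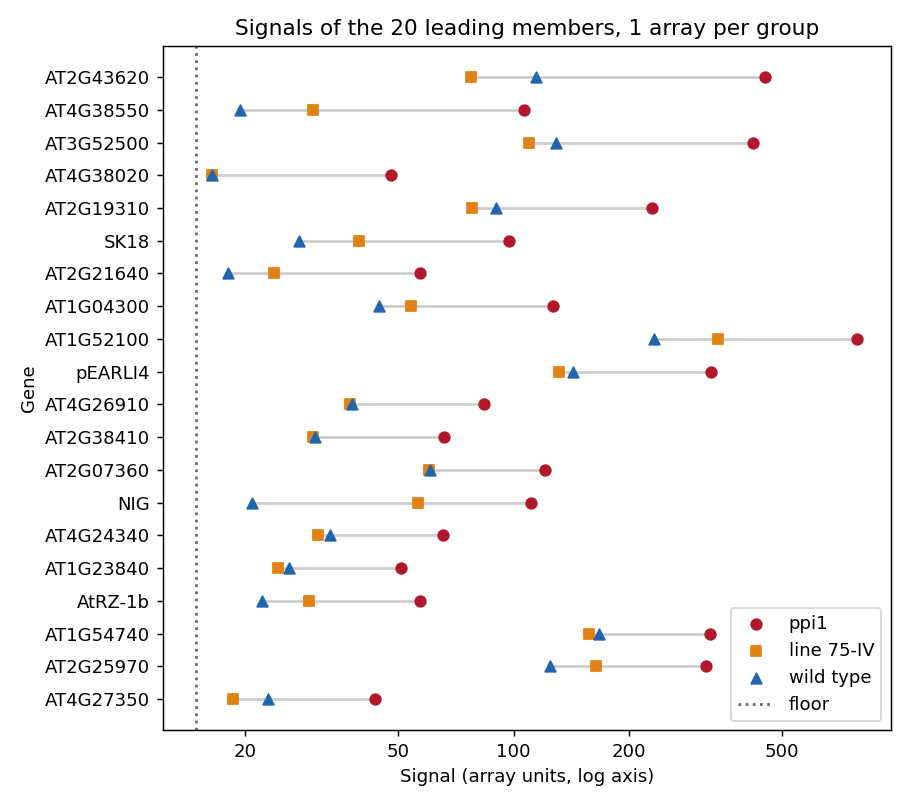
Signal in array units on a log axis of the 20 members with the largest lower ratio, for ppi1 (circle), line 75-IV (square) and wild type (triangle), 1 array each; the dotted line is the floor. AT2G43620 leads with 452.3 in ppi1, and for AT4G38020, at 16.4 on both other arrays, the other signals lie near the floor.

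Membrane traffic was represented by 10 members with a median lower ratio of 1.77-fold. AT2G07360, with an SH3 domain, and AT1G21630, with EH domains, encode subunits of the plant TPLATE complex, which takes part in endocytosis at the plasma membrane. AT2G07360 had 121.1 in ppi1, 60.4 in line 75-IV and 60.5 in wild type, and AT1G21630 had 199.3 in ppi1, 114.0 in line 75-IV and 99.7 in wild type. A second probe set of AT2G07360 lay below the floor on all arrays, and with the median over both probe sets its lower ratio turned to a log2 value of -0.23. AT4G11380, a beta adaptin, which links cargo to clathrin coats, had 225.6 in ppi1, 142.1 in line 75-IV and 114.8 in wild type. AT2G38410, with the ENTH and VHS type of domain found in proteins that bind ubiquitinated cargo, had 65.9 in ppi1, 30.0 in line 75-IV and 30.4 in wild type. AT1G15130, of the BRO1 type that acts at endosomes, had 83.1 in ppi1, 50.7 in line 75-IV and 36.5 in wild type. In AT4G11380 and AT1G15130 line 75-IV lay between the other arrays, and in AT2G38410 it was level with wild type. The early secretory pathway contributed AT2G27460, of the Sec23 and Sec24 family of vesicle coats, with 44.1 in ppi1, AT1G14010, of the p24 family, with 90.8, and AT4G32130, of the endoplasmic reticulum membrane, with 190.8. AT2G16380, of the Sec14 family that transfers phosphatidylinositol, had 48.9 in ppi1, 27.0 in line 75-IV and 22.9 in wild type.

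RNA handling and translation made up 19 members, mostly of low signal, with a median of 56.3 in ppi1, 29.5 in line 75-IV and 32.3 in wild type. AT4G38020, of the SpoU family of RNA methyltransferases, had 48.1 in ppi1 and 16.4 in both line 75-IV and wild type. AtRZ-1b, a zinc finger RNA-binding protein, had 57.0 in ppi1, 29.3 in line 75-IV and 22.2 in wild type. AT2G25970, with KH domains that bind RNA, was brighter, with 317.4 in ppi1, 164.3 in line 75-IV and 124.5 in wild type. Among the leading RNA genes AT2G25970 was therefore the one measured furthest from the floor. AT1G09660, another KH domain gene, had 48.0 in ppi1, 27.0 in line 75-IV and 24.9 in wild type.

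Ribosome making and RNA decay were covered by DIM1A, a dimethyl transferase of ribosomal RNA, with 95.8 in ppi1, 47.4 in line 75-IV and 56.1 in wild type. RRP41, a subunit of the RNA exosome, had 51.5 in ppi1, 29.5 in line 75-IV and 33.2 in wild type, and AT1G30590, of the RRN3 type that starts RNA polymerase I, had 50.2 in ppi1, 24.0 in line 75-IV and 29.5 in wild type. These 3 had their lowest signal in line 75-IV, unlike 14 of the 19 in the group, in which line 75-IV was above wild type. RNA helicases were RH39, which acts on plastid ribosomal RNA, AT2G47330 and AT2G47250, with 56.3, 36.4 and 55.5 in ppi1. AT2G24060, a translation initiation factor of the plastid type, had 202.7 in ppi1, 125.7 in line 75-IV and 119.2 in wild type. AT2G40290, the alpha subunit of initiation factor eIF2, had 115.9 in ppi1, 69.2 in line 75-IV and 67.4 in wild type. A second probe set of AT2G40290 had 75.2 in ppi1, 55.4 in line 75-IV and 50.8 in wild type, which is the same order with ratios of 1.36-fold and 1.48-fold. AT4G22720 and AT5G26110, relatives of yeast Kae1 and Bud32, which form part of a complex that modifies transfer RNA, had 43.1 and 33.3 in ppi1. The remaining genes of the group were AT1G65220, of an initiation factor family, AT4G28990 and AT2G47850, of RNA-binding types, and AT2G46520, a nuclear export receptor, with 43.0 to 163.1 in ppi1.

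Transcription factors were 5. AT2G31730, of the basic helix-loop-helix type, had 129.5 in ppi1, 50.3 in line 75-IV and 71.4 in wild type, 2.57-fold and 1.81-fold higher. AT2G12900, listed as bZIP33, had 61.9 in ppi1, 37.2 in line 75-IV and 29.8 in wild type, and AT4G38900, listed as bZIP29, had 34.6 in ppi1, 17.8 in line 75-IV and 21.6 in wild type. GT2, a trihelix factor of a family named for elements in light-regulated promoters, had 33.0 in ppi1, 20.2 in line 75-IV and 15.1 in wild type, the last near the floor. The Dof zinc finger gene AT2G34140 had 66.4 in ppi1, 42.8 in line 75-IV and 36.8 in wild type. Apart from AT2G31730, these genes were dim, and none of the 5 reached 2-fold against both other arrays.

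Protein folding and ubiquitin-dependent turnover gave 10 members. AT2G19310, an HSP20-like chaperone gene, had 229.3 in ppi1, 78.0 in line 75-IV and 90.1 in wild type, 2.94-fold and 2.54-fold higher. The other chaperone genes were the DnaJ domain gene AT2G01710, with 120.5 in ppi1, 56.4 in line 75-IV and 77.9 in wild type, and the HSP70 family gene AT4G16660, with 29.6 in ppi1, 18.2 in line 75-IV and 19.0 in wild type, near the floor. SK18, listed as SKP1-like 18 after a core subunit of ubiquitin ligases, had 97.6 in ppi1, 39.7 in line 75-IV and 27.7 in wild type. The RING finger gene AT4G26400 had 289.8 in ppi1, 118.1 in line 75-IV and 160.8 in wild type, and AT4G37880, with LisH and RING-type domains, had 93.5 in ppi1 and 53.5 in both line 75-IV and wild type. AT2G30600, with a BTB domain of the kind found in ligase adaptors, had 419.8 in ppi1, 115.9 in line 75-IV and 249.5 in wild type. Of the genes named so far in this group, SK18 was the one with line 75-IV above wild type. A second probe set of AT2G30600 had 105.9 in ppi1, 30.5 in line 75-IV and 11.6 in wild type, the last below the floor, with line 75-IV above wild type. The F-box genes AT3G57590 and AT1G23780 and the UBX-type gene SAY1 had 54.6, 33.2 and 44.9 in ppi1.

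Enzymes of metabolism and transporters were the largest group, with 22 members and a median lower ratio of 1.67-fold. AT4G26910, the E2 subunit of mitochondrial 2-oxoglutarate dehydrogenase, an enzyme of the citric acid cycle, had 83.9 in ppi1, 37.6 in line 75-IV and 38.0 in wild type. AT4G24340, of the phosphorylase family, had 65.6 in ppi1, 30.9 in line 75-IV and 33.2 in wild type. For both genes the other arrays were nearly level and ppi1 was about 2-fold above them, by 2.21-fold and 1.98-fold at the lower ratio. AT4G17480, an alpha/beta hydrolase, and AT2G47780, of the rubber elongation factor family found on lipid droplets, were dim, with 33.1 and 31.0 in ppi1. Fermentation was represented by PDC2, a pyruvate decarboxylase, with 39.2 in ppi1, 25.4 in line 75-IV and 17.7 in wild type, and by the lactate dehydrogenase gene AT4G17260, with 44.4 in ppi1, 28.6 in line 75-IV and 26.1 in wild type.

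The brighter enzymes of the group were AT5G01650, of the tautomerase family, with 513.5 in ppi1, 308.2 in line 75-IV and 310.9 in wild type, and AT4G24750, of the rhodanese family, with 442.6 in ppi1, 252.5 in line 75-IV and 246.9 in wild type. Further hydrolases were AT4G19860 and AT1G61850, of phospholipase types, the alpha/beta hydrolase AT2G47630 and the esterase AT2G38180, with 30.4 to 87.6 in ppi1. Transporters were SAG29, also called SWEET15, a sugar exporter linked to senescence, with 84.4 in ppi1, 54.8 in line 75-IV and 36.2 in wild type, the purine permease gene AT4G18205 with 146.9 in ppi1, 77.6 in line 75-IV and 94.3 in wild type, and the mitochondrial carrier family gene AT3G51870 with 73.8 in ppi1, 45.6 in line 75-IV and 42.2 in wild type. Protein and lipid-linked glycosylation was covered by the O-fucosyltransferase family gene AT1G62330 and the mannosyltransferase gene AT1G78800, with 36.2 and 50.8 in ppi1. The other 5 were the oxygenase gene AT4G16330, AT3G47800 of the galactose mutarotase type, the oxidoreductase gene AT4G09670, AT3G52155 of the phosphoglycerate mutase family and AT4G17830 of the acetylornithine deacetylase type, with 53.6 to 252.1 in ppi1 and ratios of 1.58-fold to 2.19-fold.

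**Figure D4:**
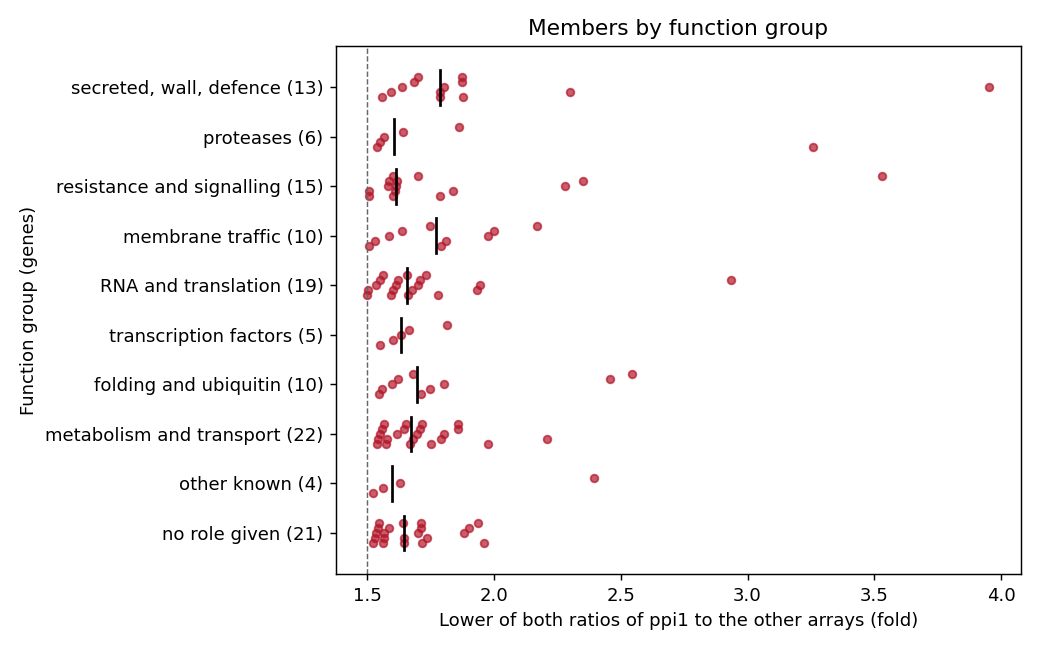
Each point is a member, placed at the lower of its ratios of ppi1 to line 75-IV and to wild type (fold), by function group with the number of genes; the black line is the median of the group and the dashed line the 1.5-fold threshold. Group medians lie between 1.60-fold and 1.79-fold, and AT2G43620 stands at 3.95-fold.

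The medians of all groups lay between 1.60-fold and 1.79-fold, a narrow span that the shared threshold sets in part. The ninth group, of 4 genes with other known features, held AT2G21640, known as a marker of oxidative stress, with 57.0 in ppi1, 23.8 in line 75-IV and 18.1 in wild type. AT2G35880, of the TPX2 family of microtubule-binding proteins, had 159.9 in ppi1, 98.1 in line 75-IV and 92.8 in wild type, the kelch repeat gene AT2G36360 had 61.6 in ppi1, 39.4 in line 75-IV and 35.4 in wild type, and the WD40 repeat gene AT2G37160 had 45.5 in ppi1, 25.6 in line 75-IV and 29.9 in wild type. Of these, AT2G21640 alone was more than 2-fold above both other arrays.

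The 21 members without a stated role had ppi1 signals from 26.0 to 1087.6. AT1G54740 had 324.1 in ppi1, 156.8 in line 75-IV and 167.2 in wild type, AT1G23840 had 51.0 in ppi1, 24.4 in line 75-IV and 26.0 in wild type, and AT4G27350 had 43.7 in ppi1, 18.6 in line 75-IV and 23.0 in wild type. These were the leading ones, with a lower ratio of 1.94-fold, 1.96-fold and 1.90-fold. The brightest, AT1G30880, had 1087.6 in ppi1, 705.5 in line 75-IV and 689.1 in wild type. Others at or above 100 in ppi1 were AT1G24160 (246.4), AT1G61900 (194.3), AT2G41160 (140.3), AT1G10020 (139.0), AT2G35450 (134.7) and AT4G01290 (115.4). A second probe set of AT2G35450 had 100.7 in ppi1, 55.0 in line 75-IV and 33.9 in wild type, 1.83-fold and 2.97-fold higher, also in the order of its brightest probe set. AT4G37920, AT2G07785, AT4G36440, AT4G29520, AT1G09520, AT4G10970, AT2G45700, AT2G25800, AT2G42040, AT2G44760 and AT4G11670 complete the set, with 26.0 to 82.1 in ppi1.

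Further probe sets of the same genes gave ratios that the rule did not use, though they come from the same RNA and arrays. They are the dimmer ones by the rule's choice of the brightest probe set. They existed for 11 members, 14 probe sets in all, of which 4 lay above the floor on all 3 arrays. In 2 of these 4 the ppi1 signal was the highest, those of AT2G35450 and AT2G40290, and in AT2G35450 it was at least 1.5-fold above both others. In the other two, of scpl26 and AT4G10970, it was not, and AT4G10970 had 30.2 in ppi1, 33.6 in line 75-IV and 26.5 in wild type. For members with 1 probe set no such check was possible.

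On the chromosomes the members followed the genes that were measured. Chromosome 2 held 34.4% of the members and 38.1% of the measured genes, chromosome 4 held 31.2% and 30.0%, and chromosome 1 held 24.8% and 21.2%. Chromosomes 3 and 5 held 7 and 5 members. The adjacent pairs AT1G03220 with AT1G03230 and AT1G62500 with AT1G62510 were the only members within 2 positions of another in the order of protein-coding loci. Of the members 9.6% were read by a probe set whose name carries a suffix letter, such as s or i, against 14.4% of all measured genes.

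Pathway lists outside the members were thinly covered by named probe sets. Of 13 lists, for photosynthesis, defence, jasmonate, ethylene, calcium, chaperones, sulfur, sugar, vesicle traffic, splicing, the proteasome, kinases and the cytoskeleton, 8 had at least 1 gene above the floor on all arrays. SK18 was the single member among their genes, entered in the kinase list although the gene table gives it as SKP1-like. None of the 7 photosynthesis genes was highest in ppi1 and 2, PSAN and LHCB4.3, were at least 1.5-fold below both others. The median log2 ratio of these 7 was -0.53 for ppi1 over line 75-IV and -0.42 for ppi1 over wild type, against 0.06 and 0.10 for all measured genes. Of 5 cytoskeleton genes 3 were highest in ppi1, and the tubulin gene TUB6 came nearest to the rule with 475.6 in ppi1, 331.2 in line 75-IV and 259.3 in wild type. The lists for jasmonate, chaperones, vesicle traffic and splicing matched no gene by name, so no level was looked at for them. The defence list matched 1 gene, which was not above the floor on all arrays. The groups above could therefore not be set beside their pathways.

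Genes below the floor on the other arrays could not enter the set, since a ratio to such a signal has no firm value. There were 144 genes above the floor in ppi1 only, against 60 above it only in line 75-IV and 37 only in wild type. Of the 144, 39 reached at least 1.5 times the floor and 11 at least 2 times, and the highest stood at 49.3. They were left out of all counts above.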

How the data were processed

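Total RNA was labelled with biotin through an oligo-dT primed reaction, per the labels' protocols. The deposited intensity values are linear signals, 1 per probe set on 8297 probe sets. The sources used here do not give the authors' software or scaling target. The 2% trimmed means were 100.2 on each array, so signals were used as deposited, without replicates or depth.

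The 50 control probe sets were left out. The platform annotation named 1 gene for 3794 probe sets, several for 70 and none for 4433. Of 3602 genes, 3592 were in the RefSeq gene table (TAIR10.1). For 164 genes with several probe sets, the probe set with the highest mean log2 signal represented the gene, after signals under 14.9 were raised to that floor, which is the 40th percentile of all values without controls. Ratios are of deposited signals, with Python 3.11.15, pandas 2.3.3 and statsmodels 0.14.6. The code of the rule was run on simulated signals, a check of the code that does not measure the noise of these arrays. The choice of 1.5-fold is a rule of size, not a test.

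Members and lists were chosen with earlier results of these data known. Function groups were assigned by hand. AT2G28080, a UDP-glycosyltransferase, was left out and AT1G78800, a mannosyltransferase of another family, kept. The genes named with all signals follow a rule of the 20 largest lower ratios, then up to 4 per function group and 3 on each side of the threshold; others are named to account for every member. Planned counts of product-name words and promoter motifs were not run, and no sequence was used here. The 10 alternatives concerned scaling, probe sets, floor and threshold.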

Additional observations from a re-analysis of the deposited data

Results flagged for a closer look

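In 3 of the 125 members ppi1 and line 75-IV lay on opposite sides of wild type, each by at least 1.5-fold. The rule set the side of ppi1 in every member. Line 75-IV was at least 1.5-fold below wild type in 72 of all 1796 genes (4.01%), a larger share. The difference was not tested, and both ratios share the wild-type array. The rule also limits how far apart line 75-IV and wild type can be in a member. The log2 ratio of line 75-IV to wild type was -1.11 for AT2G30600, -0.75 for AT1G61100 and -0.60 for AT4G19530, while ppi1 was 1.68-fold, 1.51-fold and 1.84-fold above wild type. For AT2G30600 a second probe set had line 75-IV above wild type.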

How the results depend on the processing

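The number of members was 125. It was 80 after loess on level, 767 with scaling to 9 bacterial spike-in controls, 60 with the floor at the 60th percentile (39.8) and 265 with it at the 20th (4.2). A threshold of 1.3-fold gave 295 genes and of 2-fold 13. Spike-in scaling moved the median log2 ratio of all genes to 0.72 over line 75-IV and 0.59 over wild type, against 0.06 and 0.10 as deposited. Median centring gave 92, quantile normalization 101 (93 of them members) and probe sets without a suffix 113. The median over probe sets gave 120 genes, of which 116 were members. Among the members it could change only the 11 with several probe sets, and 5 members had no value under it. With the floor at 39.8, 65 members had no value, and without suffixed probe sets 12 had none. In both settings every member with a value was kept. That outcome was built in, since neither setting changed the signals of these members, and nothing is read from it. Under all 4 scalings 76 of the 125 were kept. Spike-in scaling, which raised the ratios of ppi1, kept all 125, so every loss came from the other scalings. Of the named members, AT2G07360 reversed, at -0.23 on the log2 scale as the median over probe sets; the second probe set lies below the floor. GT2, AT4G38900, AT2G03140, AT2G36360 and AT2G37160 went under 1.5-fold after loess, and AT4G38900, AT2G03140 and AT2G37160 also after median centring and quantile normalization. No paired analysis was possible because each group had 1 array.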
